A study of Mus musculus with 6 samples.

Results

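Small intestinal epithelium of sham-operated mice on a high-fat diet (HFD sham) was set against that of sham-operated mice on a low-fat diet (LFD sham), gene by gene, in both the crypt and the villus preparation. The comparison used 4 of the 6 single-cell libraries of the series and 16767 of its 26696 barcodes, which were the barcodes with at least 750 genes and at most 20% mitochondrial UMIs (unique molecular identifiers, each standing for 1 captured RNA molecule). LFD sham gave 4610 such barcodes in the crypts and 4556 in the villi, and HFD sham gave 3286 and 4315. All mice were male wild-type C57BL/6J mice about 30 weeks old, fed the low-fat or the high-fat diet for 16 weeks before a sham operation, put back on the same diet and killed after an overnight fast 5 weeks after it. Each library pooled the jejunal epithelium of 3 mice, and the crypt and villus libraries of a diet came from the same pool. With 1 library per diet and preparation no spread between mice can be estimated, so no test was made, every ratio compares these libraries and not the diets, and the intervals given cover counting error only. A second preparation of the same pool repeats the preparation and not the animals.

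The jejunal epithelium is renewed from stem cells at the base of the crypts, whose daughters divide, migrate onto the villi and mature into absorptive enterocytes with a brush border. Enterocytes take up fat, sugar and peptides, carry enzymes that conjugate and excrete foreign compounds, and secrete Reg3 lectins against bacteria in contact with the mucosa. They can also display peptides on MHC class II. That pathway is driven by the transactivator *Ciita*, which interferon gamma induces, and its products include the alpha and beta chains (*H2-Aa*, *H2-Ab1*, *H2-Eb1*), the invariant chain *Cd74* that guides them to endosomes, and the peptide-loading chaperones *H2-DMa* and *H2-DMb1*.

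The sequences just upstream of 5 genes that were lower in HFD sham in both preparations are shown first, because 3 of them belong to MHC class II and 2 to the interferon-stimulated genes and each holds the motif marked. *H2-DMa* and *Ubd*, also lower in both, are not shown, since the 120 bases before their starts held no match to the motif looked for. Each is the 120 bases before the RefSeq start in GRCm38.p6, written 5′ to 3′ on the strand of the gene, with capitals on GATTGG (the core of the Y box of MHC class II promoters, or its reverse complement CCAATC) in the first 3 and on GAAANNGAAA (the interferon-stimulated response element, either strand) in the last 2.
H2-Aa (chr17:34287824-34287943, minus strand): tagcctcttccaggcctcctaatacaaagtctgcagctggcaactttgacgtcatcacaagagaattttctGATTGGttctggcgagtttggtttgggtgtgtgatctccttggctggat
H2-Eb1 (chr17:34305747-34305866, plus strand): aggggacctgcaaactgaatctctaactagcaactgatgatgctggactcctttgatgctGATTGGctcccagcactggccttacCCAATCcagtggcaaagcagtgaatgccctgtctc
H2-DMb1 (chr17:34153071-34153190, plus strand): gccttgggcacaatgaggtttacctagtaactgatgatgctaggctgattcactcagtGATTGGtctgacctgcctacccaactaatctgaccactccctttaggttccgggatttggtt
Gbp7 (chr3:142530216-142530335, plus strand): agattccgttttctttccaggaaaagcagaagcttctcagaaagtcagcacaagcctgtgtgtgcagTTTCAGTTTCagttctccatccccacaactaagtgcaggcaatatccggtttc
Igtp (chr11:58199436-58199555, plus strand): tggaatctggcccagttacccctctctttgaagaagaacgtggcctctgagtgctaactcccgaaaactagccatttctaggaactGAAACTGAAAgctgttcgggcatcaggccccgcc
Of the MHC class II list, 6 of 9 genes had a RefSeq promoter, and 5 of their 7 promoters held GATTGG on either strand in the 250 bases before the start, against 14.6% of 32851 promoters searched over the same length. Of the 25 interferon-stimulated genes, 20 had a promoter, and 11 of their 24 promoters held GAAANNGAAA on either strand of those 250 bases, against 2.98% of all promoters. The gamma-activated motif TTCNNNGAA was in 6 of the same 24, against 7.02% of all. GATTGG was in 22.4% of promoters of all genes lower in both preparations and in 21.9% of those higher in both. GAAANNGAAA was in 5.99% and 2.43% of them, and TTCNNNGAA in 5.99% and 5.67%. All these are matches of letters and not measured binding sites.

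The 4 libraries held between 38767388 and 64227773 UMIs in passing barcodes, with a median of 9202 to 13032 UMIs per barcode, and only 35.3% to 47.6% of the called barcodes passed. The passing share was lower in both HFD sham libraries, at 35.3% in the crypts and 35.9% in the villi, against 42.9% and 47.6% in LFD sham. Too few genes failed 33.4% and 43.3% of HFD sham barcodes, against 22.4% and 22.8%. The mitochondrial limit failed 53.5% and 47.8%, against 44.1% and 42.2%. Any pair of libraries shared between 2 and 13 barcodes. The markers went against the names of the preparations. Each barcode was assigned to the marker list that led it, meaning the list with the highest share of its UMIs relative to the mean over all barcodes. Barcodes led by brush border markers made up 86.3% of LFD sham and 87.1% of HFD sham crypts, but 44.1% and 64.8% of the villi. Those led by stem and cycling markers made up 3.51% and 4.66% of the crypts and 21.1% and 10.8% of the villi. The libraries are therefore called crypt-labelled and villus-labelled below.

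**Figure D1:**
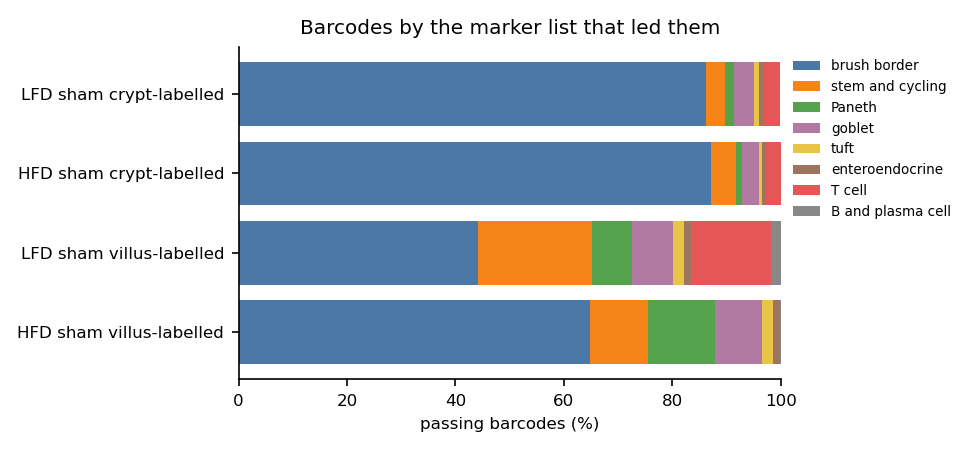
Share of passing barcodes (%) led by each marker list in the 4 libraries. Brush border-led barcodes are 86.3% and 87.1% of the crypt-labelled libraries and 44.1% and 64.8% of the villus-labelled ones, and T cell-led barcodes are nearly missing from the HFD sham villus-labelled library.

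The mix of cells differed between the diets in both preparations, most in the T cells of the villus-labelled libraries. Summed over the list, stem and cycling markers stood at 393 CPM (UMIs per 1000000 UMIs of the library) in LFD sham and 425 in HFD sham crypts, and at 1807 and 862 CPM in the villi. Brush border markers stood at 8597 and 9007 CPM in the crypts and at 4120 and 6156 in the villi. In the crypts most members had log2 ratios below 0, down to -0.35 for *Mep1a*, while *Anpep* had 0.42, *Alpi* 0.31 and *Mep1b* 0.11. Paneth markers, the antimicrobial granule genes of the crypt base, stood at 12241 and 11432 CPM in the crypts and at 77527 and 41262 in the villi, although Paneth-led barcodes were 7.40% of LFD sham and 12.2% of HFD sham villi. T cell markers were the most uneven. They stood at 361 and 295 CPM in the crypts and at 1438 and 9.98 CPM in the villi, where 678 barcodes of LFD sham and 5 of HFD sham were T cell-led. Goblet markers were at 5917 CPM in LFD sham and 3442 in HFD sham crypts, a log2 ratio of -0.78, and had -0.03 in the villi. Enteroendocrine markers had -0.51 and 0.05, with members on opposite sides, such as *Chga* at 0.50 and -0.98 and *Gip* at -0.67 and 1.18. Tuft markers summed to 55.6 and 53.2 CPM in the crypts, a log2 ratio of -0.06, and had 0.33 in the villi. *Ltc4s* alone had 18.4 and 36.9 CPM of the crypt sums and log2 ratios of 1.01 and 1.48. The other 8 of 9 tuft markers were below 0 in the crypts, and tuft-led barcodes were 0.824% of LFD sham and 0.396% of HFD sham crypts. In sums over such a mix, fewer cells of a type and less RNA per cell cannot be told apart, so each list below is also given within brush border-led barcodes, the most numerous class of all 4 libraries.

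A total of 11830 genes reached a mean of 50 UMIs over the 4 libraries and are called measured. A gene is counted as higher or lower where the log2 ratio of HFD sham to LFD sham lay beyond 0.5. In the crypt-labelled libraries 503 genes (4.25%) were higher in HFD sham and 976 (8.25%) lower, and in the villus-labelled libraries 868 (7.34%) were higher and 2221 (18.8%) lower. The same direction in both was seen for 233 higher genes (1.97%) and 469 lower genes (3.96%), and opposite directions for 96. The median over all measured genes was -0.02 in the crypts and -0.10 in the villi. With each preparation centred on its median the villi gave 1244 higher and 1794 lower genes, and 270 and 379 were higher and lower in both. Subtracting free RNA at the fraction stated for each library turned this balance in the crypts, with 1328 higher and 795 lower genes, and in both, with 379 higher and 328 lower, but not in the villi, with 1179 higher and 1900 lower, and left 235 of the 469 lower genes beyond 0.5. The stated fractions are larger for both HFD sham libraries than for the LFD sham ones. Within brush border-led barcodes 10003 genes were measured, of which 224 (2.24%) were higher and 293 (2.93%) lower in both. Of the 233 genes higher in both, 217 were measured there; all 217 kept their sign and 177 lay beyond 0.5. Of the 469 lower genes only 205 were measured there, of which 197 kept their sign and 146 lay beyond 0.5. Brush border-led barcodes held 87.1% and 88.5% of the UMIs of LFD and HFD sham crypts, and 43.7% and 67.2% in the villi. The crypt ratios there are thus largely the same data, so kept signs were favoured by the choice of genes.

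**Figure D2:**
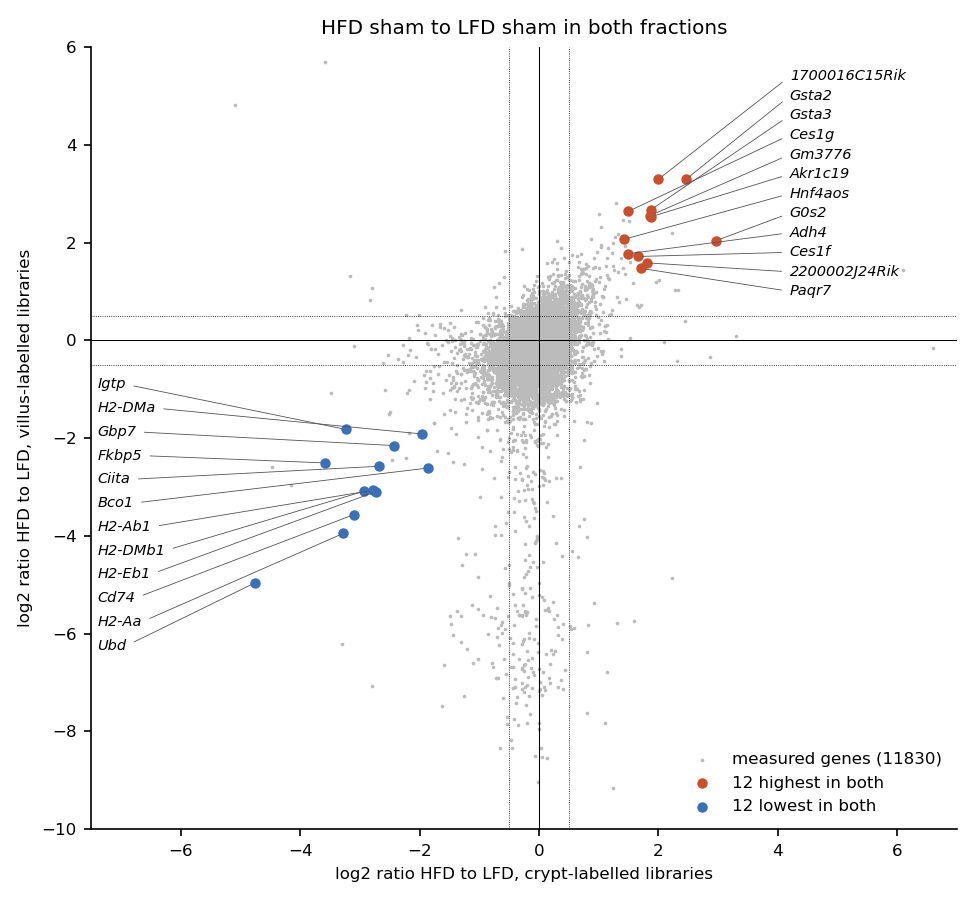
Log2 ratio of HFD sham to LFD sham in the crypt-labelled libraries (x axis) against the villus-labelled libraries (y axis) for 11830 measured genes (grey), with dotted lines at 0.5 and -0.5. The 12 genes highest in both (red) lie at upper right and the 12 lowest (blue) at lower left, while a tail of genes near 0 on the x axis reaches far below 0 on the y axis.

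The plot of both preparations shows that tail of genes far lower in the HFD sham villi and near 0 in the crypts. The summed T cell list lay in the same place, at a log2 ratio of -7.17 in the villi and -0.29 in the crypts. The 12 lowest and 12 highest genes in both preparations lie elsewhere. Of the 12 lowest, 7 were MHC class II genes (*H2-Aa*, *H2-Ab1*, *H2-Eb1*, *Cd74*, *H2-DMa*, *H2-DMb1* and *Ciita*) and 3 were interferon-inducible (*Ubd*, *Gbp7* and *Igtp*). *Fkbp5* and *Bco1* completed them. Of the 12 highest, 3 were alpha class glutathione transferases (*Gsta2*, *Gsta3* and *Gm3776*) and 4 were other enzymes (*Akr1c19*, *Ces1f*, *Ces1g* and *Adh4*).

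**Figure D3:**
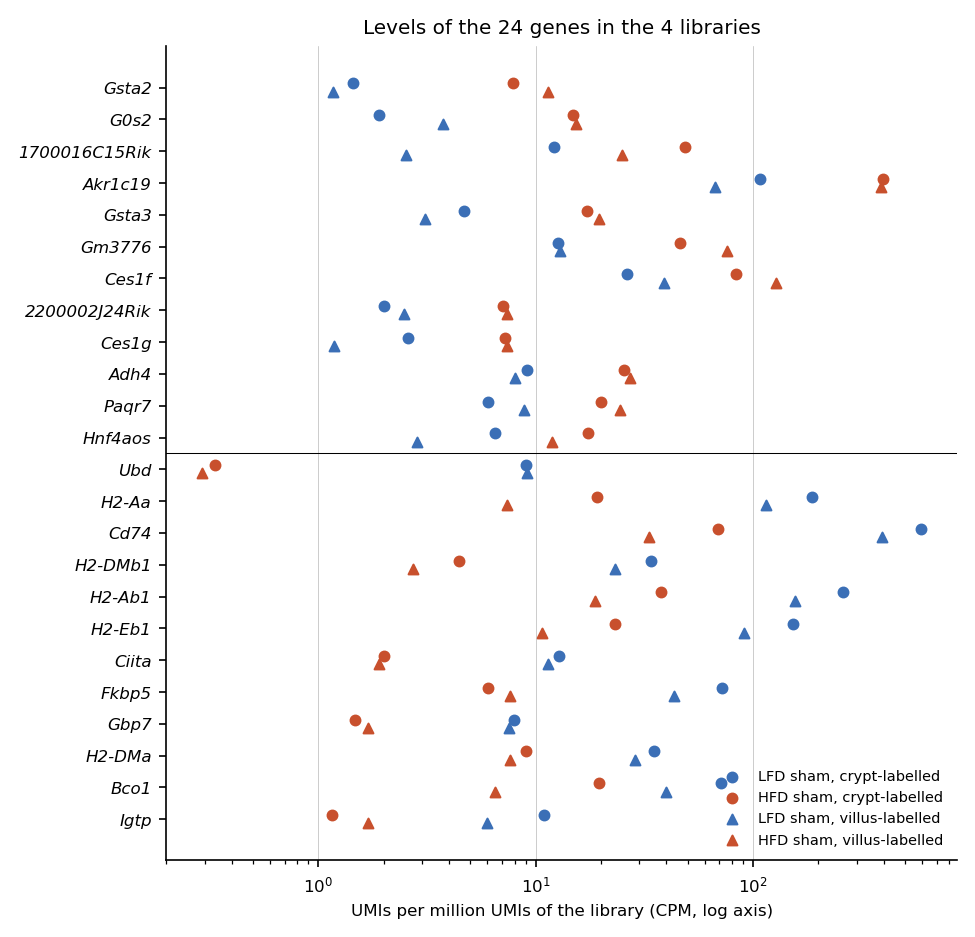
Level (CPM, log axis) of the 12 highest and 12 lowest genes in each library, LFD sham in blue and HFD sham in red, crypt-labelled as circles and villus-labelled as triangles. For every gene both HFD sham libraries lie on the same side of both LFD sham libraries, as the choice of these genes favours.

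MHC class II was the list furthest from 0 in both preparations. Of its 9 genes 8 were measured, and 7 were lower in HFD sham in both (the background is 3.96% of measured genes). The list median was -2.75 in the crypts and -3.08 in the villi. *H2-Aa*, the alpha chain of I-A (chr17:34282744-34287823, mm10), was at 186 CPM in LFD sham and 19.2 in HFD sham crypts, and at 115 and 7.42 CPM in the villi. Its log2 ratios were -3.28 (95% interval -3.39 to -3.17) and -3.95 (-4.09 to -3.81). The HFD sham level was thus 0.103 of the LFD sham level in the crypts and 0.0646 of it in the villi, and both HFD sham libraries lay far below both LFD sham libraries. The partner chain *H2-Ab1* was at 259 and 37.9 CPM in the crypts and 157 and 18.7 in the villi. *H2-Eb1*, the beta chain of I-E, was at 153 and 23.1 CPM and at 91.4 and 10.7 CPM. C57BL/6 mice lack the partner alpha chain of I-E, so this transcript is read here as a transcript only. The invariant chain *Cd74* was at 594 CPM in LFD sham and 69.1 in HFD sham crypts, and at 393 and 33.2 in the villi.

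The regulator and the loading chaperones of the pathway lay on the same side as the chains. *Ciita* (chr16:10480059-10528418) was at 12.9 CPM in LFD sham and 2.01 in HFD sham crypts and at 11.4 and 1.91 in the villi, with log2 ratios of -2.68 and -2.58. *H2-DMb1* was at 34.1 and 4.46 CPM in the crypts and 23.3 and 2.73 in the villi. *H2-DMa* had the smallest difference of the 7, with ratios of -1.95 and -1.92. The member outside the pattern was *Ctss*, the protease that trims the invariant chain, at -0.32 and 0.09. It held 121, 96.7, 63.2 and 67.4 CPM in LFD and HFD sham crypts and LFD and HFD sham villi.

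The class II difference was as large inside brush border-led barcodes. There the list median was -2.82 in the crypts and -3.46 in the villi, and all 8 measured members were below 0 in both, against 3401 of 10003 measured genes there. In stem and cycling-led barcodes it was -2.33 and -3.18. In droplets with fewer than 100 UMIs, where 5 members were measured, it was -2.78 and -3.91. Professional antigen-presenting cells also express these genes. B and plasma cell-led barcodes were 2 in LFD sham and 1 in HFD sham crypts, and 80 (1.76%) and 2 in the villi. B and plasma cell markers summed to 1.45 CPM in LFD sham and 3.61 in HFD sham crypts, and to 56.7 and 10.8 in the villi. *Jchain* alone had 9.01 and 9.62 CPM of the villus sums, a ratio of 0.09, and every other member was below 0 there. Myeloid markers summed to 1.44 and 1.496 CPM in the crypts and to 4.39 and 1.12 in the villi, with 2 of 7 markers at 0 in each crypt-labelled library. Without all lymphocyte-led barcodes the ratio of *Cd74* was -3.12 in the crypts and -3.54 in the villi, against -3.10 and -3.57 with them. With at most 10% mitochondrial UMIs the list median was -2.17 and -2.42, its value nearest to 0 among the 15 other ways of processing.

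The share of barcodes with class II RNA showed the same difference cell by cell. After each barcode was thinned to 1500 UMIs, 73.4% (2914 of 3972) of brush border-led barcodes of LFD sham crypts held at least 1 UMI of the list, and 26.7% (765 of 2861) of those of HFD sham crypts. In the villi the shares were 68.8% (1381 of 2007) and 20.4% (567 of 2784). The thinning left out 5, 2, 4 and 13 barcodes of LFD and HFD sham crypts and LFD and HFD sham villi, and before it the shares were 96.5%, 74.2%, 95.7% and 71.8%. T cell-led barcodes, which should make little class II RNA, held a UMI in 45.7% of LFD sham crypts, 18.6% of HFD sham crypts and 35.0% of LFD sham villi. The 5 T cell-led barcodes of HFD sham villi were too few for a share. Stem and cycling-led barcodes, near the T cell-led shares, held one in 49.4% of LFD sham and 14.5% of HFD sham crypts. In the villi they held one in 43.0% and 10.7%. Whether their UMIs came from the cell itself was not tested. The HFD sham share of brush border-led crypt barcodes lay below the upper bound of the exact 95% interval of the T cell-led share there (28.4%), so the 2 could not be told apart at this depth. That brush border-led share lay above the upper bounds for stem and cycling-led (21.1%), goblet-led (25.1%) and Paneth-led (21.4%) barcodes of the same library. In HFD sham villi goblet-led and Paneth-led barcodes held one in 7.24% and 8.53%. What put these UMIs in T cell-led barcodes was not tested. Barcodes with 5 or more UMIs of the list were 16.0% of brush border-led barcodes in LFD sham crypts and 1.22% in HFD sham crypts, and 20.8% and 0.539% in the villi, against 3.57% (5 of 140) and 1.16% (1 of 86) of T cell-led barcodes in LFD and HFD sham crypts and 0.893% (6 of 672) in LFD sham villi. At this number too, the brush border-led share of HFD sham crypts did not stand apart from the T cell-led one. Median UMIs before thinning were 9733, 11903, 13323 and 14063 in the brush border-led barcodes and 3384, 3241 and 3112 in the T cell-led ones of those 3 libraries.

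**Figure D4:**
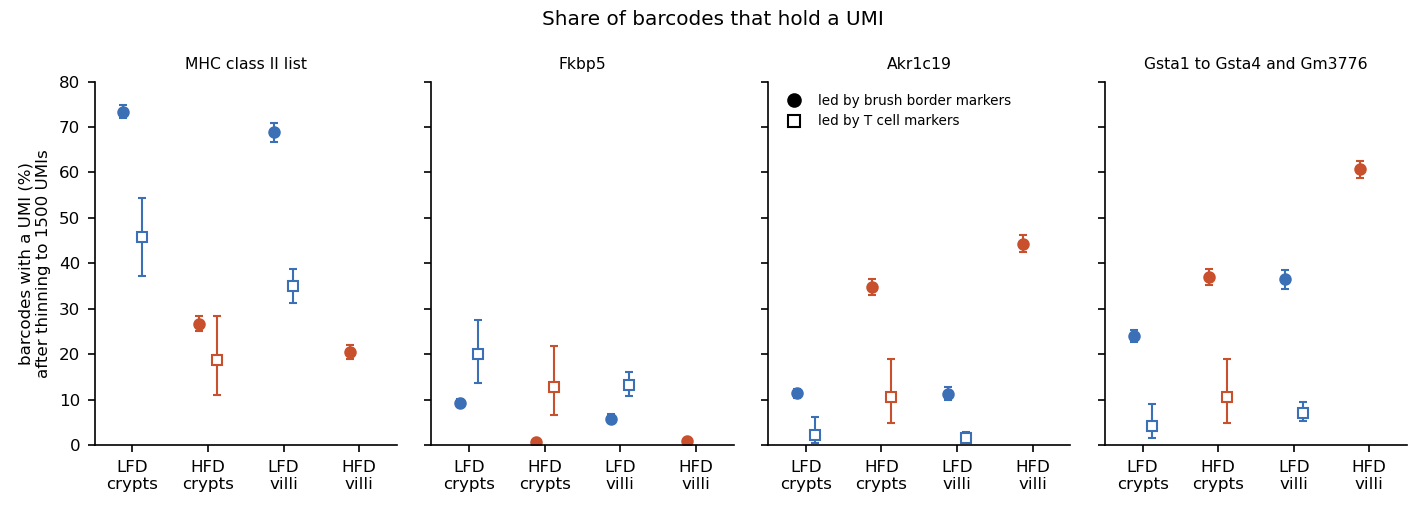
Share of barcodes (%, with exact 95% binomial intervals for counting error) holding at least 1 UMI of MHC class II, Fkbp5, Akr1c19 or the alpha class glutathione transferases after thinning to 1500 UMIs. Filled circles are brush border-led barcodes (class II 73.4%, 26.7%, 68.8% and 20.4% from left to right) and open squares T cell-led barcodes, blue for LFD sham and red for HFD sham.

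MHC class I, which presents peptides of the cell itself, lay much nearer to 0. Its 17 measured members had a median of -0.23 in the crypts and -0.02 in the villi, and only *H2-Q10* and the class I transactivator *Nlrc5* were lower in both (background 3.96%). *Nlrc5* rested on 60, 23, 124 and 1 UMIs in LFD and HFD sham crypts and LFD and HFD sham villi. *H2-K1*, a classical heavy chain, was at 797 and 615 CPM in the crypts and 405 and 358 in the villi. The light chain *B2m* had ratios of -0.26 and 0.00. The sign of the villus median changed with the processing, from -0.38 to 0.09 over the alternatives tried. In brush border-led barcodes, where 16 members were measured, the median was -0.19 in the crypts and -0.17 in the villi. H2-Q and H2-T genes are close copies of one another, so reads may be split or lost between them.

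Interferon-stimulated genes were mostly lower in the HFD sham crypts and less uniformly in the villi. Of 24 measured members 18 were lower in the crypts (background 8.25%), 9 were lower in both (background 3.96%), and none was higher in both (background 1.97%). The list median was -0.97 in the crypts and -0.24 in the villi, and it stayed below 0 in both under every alternative tried. *Ubd*, a ubiquitin-like modifier induced by interferon gamma and tumour necrosis factor (chr17:37193892-37196095), was among the 12 lowest genes. It was at 9.07 CPM in LFD sham and 0.34 in HFD sham crypts, and at 9.11 and 0.29 in the villi, with ratios of -4.76 (-5.68 to -3.97) and -4.96 (-5.75 to -4.27). With at most 10% mitochondrial UMIs the ratios of *Ubd* were -3.95 and -2.23. The GTPases that interferon induces against intracellular pathogens were also lower. *Igtp* was at 10.9 and 1.16 CPM in the crypts and 5.96 and 1.68 in the villi. *Gbp7* was at 7.93 and 1.47 CPM and at 7.57 and 1.70 CPM. In stem and cycling-led barcodes of the crypts the ratio of *Gbp7* was 1.75, but it rests on few UMIs. All crypt barcodes together held 453 UMIs of *Gbp7* in LFD sham and 57 in HFD sham.

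The antiviral members of the list differed in how far they reached. *Usp18*, a brake on type I interferon signalling, had ratios of -2.58 in the crypts and -1.02 in the villi. *Zbp1*, a sensor of Z-form nucleic acid, had -1.41 and -1.20, and *Oasl2* and *Xaf1* had -1.43 and -0.81 and -1.37 and -1.03. *Rsad2*, *Oas1a* and *Bst2* were the other members lower in both. By contrast *Ifit1*, which binds foreign RNA caps, was at 29.4 and 7.82 CPM in the crypts, a ratio of -1.91, and at 4.11 and 4.57 CPM in the villi, a ratio of 0.15. The regulator *Irf7* had -0.77 and -0.36. Members on the upper side were *Irf1*, at 0.21 and 0.36, and *Ifi27l2b*, at 0.25 and 0.91. Within brush border-led barcodes the median was -1.01 and -0.45, and 11 members were lower in both (background 2.93%). Within stem and cycling-led barcodes, where 11 members were measured, the median was -0.25 and -0.08. There 0 were lower in both (background 0.969%) and 1 was higher in both (background 0.991%).

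*Fkbp5*, a chaperone of steroid receptors whose gene is a standard target of the glucocorticoid receptor (chr17:28399094-28517527), was also among the 12 lowest genes. It was at 72.3 CPM in LFD sham and 6.01 in HFD sham crypts, and at 43.2 and 7.59 in the villi. The ratios were -3.59 (-3.79 to -3.40) and -2.51 (-2.66 to -2.36). They were -4.31 and -3.16 in brush border-led barcodes and -1.29 and -1.64 in stem and cycling-led ones. After thinning, 9.29% of brush border-led barcodes of LFD sham crypts and 0.629% of those of HFD sham held a UMI, and 5.73% and 0.862% in the villi. T cell-led barcodes held one in 28 of 140 (LFD sham) and 11 of 86 (HFD sham) in the crypts and in 13.2% of LFD sham villi, so the share of enterocytes was below that of T cells in each of these 3 libraries. The rest of the glucocorticoid list was less uniform. *Zbtb16* and *Ddit4* were also lower in both, at -2.47 and -2.45 and at -0.72 and -0.87, whereas *Tsc22d3* was at -0.56 and -0.18, *Sgk1* at -0.73 and 0.28 and *Klf9* at 0.02 and -0.08. The median of the 9 members was -0.56 and -0.18. In brush border-led barcodes, where 8 members were measured, it was -0.48 and -0.21, and 1 was lower in both (background 2.93%).

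Among antimicrobial and microbe-induced genes 6 of 21 measured members were lower in both preparations (background 3.96%) and 1 was higher (background 1.97%). *Reg3g*, the lectin that keeps Gram-positive bacteria off the epithelium and that the study singled out, was at 3532 CPM in LFD sham and 1519 in HFD sham crypts, and at 4059 and 1423 in the villi. The ratios were -1.22 and -1.51, and -1.20 and -1.91 in brush border-led barcodes. Its relatives did not share the size of that difference. *Reg3b* had -0.43 and -0.79, and *Reg3a* was on the other side, at 300 and 589 CPM in the crypts and 180 and 628 in the villi, ratios of 0.98 and 1.80. The Reg3 genes are similar in sequence, and how reads were shared between them was not examined.

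*Reg3g* RNA was spread widely in the droplets. At least 1 of its UMIs after thinning was held by 62.1% of brush border-led and 61.4% of T cell-led barcodes in LFD sham crypts. In HFD sham crypts these shares were 49.8% and 31.4%, and in LFD sham villi 81.4% and 70.8%. Barcodes with 5 or more of its UMIs after thinning were 29.4% of brush border-led barcodes in LFD sham and 16.7% in HFD sham crypts, and 58.3% (1170 of 2007) and 586 of 2784 in the villi. T cell-led barcodes reached that number in 0 of 140 and 0 of 86 crypt barcodes and in 3.72% of LFD sham villi. The other members lower in both were *Ubd*, *Nos2*, *Fut2*, *Saa1* and *Mptx2*. *Nos2*, the inducible nitric oxide synthase, was at 24.1 and 16.0 CPM in the crypts and 20.7 and 8.49 in the villi. *Saa1* and *Mptx2* had ratios of -3.29 and -6.20 and of -2.23 and -2.40, but a single barcode held 32.5% and 24.4% of their UMIs in one library. Of the Paneth products, *Lyz1* had 0.02 and -0.76, and 0.32 in the villi after thinning, *Itln1* had 0.19 and -0.94, *Mmp7* -0.57 and -1.13 and *Defa22* -0.94 and -1.23, beside the lower Paneth marker level in the HFD sham villi. Defensin genes are near-identical copies, so reads may be split among them. The list median was -0.21 and -0.76 over all barcodes and -0.43 and -0.38 in brush border-led ones, but 0.083 in the villi after thinning to 1500 UMIs and 0.02 in the crypts after subtracting the stated free RNA.

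Glutathione and antioxidant genes lay mostly on the other side. Of 24 measured glutathione and antioxidant genes 23 lay above 0 in both preparations, against 2938 of 11830 measured genes, and 7 were higher in both (background 1.97%). These were *Gsta1*, *Mgst1*, *Mgst2*, *Mgst3*, *Gpx1*, *Prdx1* and *Nqo1*. *Gsta1*, a transferase that couples glutathione to electrophiles, was at 256 and 408 CPM in the crypts and at 234 and 579 in the villi. *Prdx1*, a peroxiredoxin that reduces hydrogen peroxide, was at 909.5 and 1407 CPM and at 808 and 1307. The quinone reductase *Nqo1* was at 15.9 and 24.3 CPM and at 19.6 and 31.7. The list median was 0.22 in the crypts and 0.69 in the villi, and 0.24 and 0.41 in brush border-led barcodes, again with 7 members higher in both (background 2.24%). It was above 0 in both preparations under all alternatives tried.

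The alpha class transferases outside the list went further. *Gsta2* (chr9:78331018-78355788) was at 1.44 CPM in LFD sham and 7.89 in HFD sham crypts, and at 1.17 and 11.4 in the villi, ratios of 2.46 (2.10 to 2.83) and 3.29 (2.94 to 3.65). *Gsta3* was at 4.69 and 17.3 CPM and at 3.08 and 19.7. *Gm3776*, which lies near *Gsta2* on chromosome 9, was at 12.7 and 46.3 CPM and at 13.0 and 76.2. These genes are near-identical copies in part, so the division of reads among *Gsta1*, *Gsta2* and *Gm3776* is uncertain. As a group that does not depend on that division, *Gsta1* to *Gsta4* and *Gm3776* gave at least 1 UMI in 23.9% of thinned brush border-led barcodes of LFD sham and 36.9% of HFD sham crypts, and in 36.5% and 60.7% in the villi. T cell-led barcodes held one in 4.29% and 10.5% of the crypts and in 7.14% of LFD sham villi, so that share was also the larger in HFD sham crypts.

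Of 26 measured genes of xenobiotic metabolism 8 were higher in both (background 1.97%), and none was lower in both over all barcodes (background 3.96%). In the crypts 4 were lower (background 8.25%). *Akr1c19*, an aldo-keto reductase (chr13:4228700-4252843), had the largest difference. It was at 108 CPM in LFD sham and 397 in HFD sham crypts, and at 67.0 and 387 in the villi, ratios of 1.88 (1.84 to 1.92) and 2.53 (2.48 to 2.58). Thinned brush border-led barcodes held a UMI of it in 11.4% and 34.8% of the crypts and in 11.3% and 44.3% of the villi, against 2.14% and 10.5% of T cell-led barcodes in the crypts and 1.64% in LFD sham villi. Enterocytes of both diets stood above the T cell-led level. Of the carboxylesterases, which split esters of drugs and lipids, *Ces1f* was at 26.4 and 83.4 CPM in the crypts and 38.9 and 128 in the villi, *Ces2a* had ratios of 1.04 and 1.95, and *Ces1g*, outside the list, 1.49 and 2.64. Dehydrogenases of alcohols and aldehydes were also on this side. *Adh4* was at 9.09 and 25.5 CPM in the crypts and had ratios of 1.49 and 1.77, *Adh1* had 0.92 and 1.69, and *Aldh1a1* 1.04 and 1.91. Carboxylesterase genes lie in clusters of similar copies, so their single values share the uncertainty of the transferases.

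The cytochromes P450 were divided. *Cyp2j6* had 0.78 and 1.36 and the glucuronosyltransferase *Ugt2b5* 1.39 and 2.12, all higher. *Cyp3a11*, a major oxidase of drugs and bile acids, was at 873 CPM in LFD sham and 271 in HFD sham crypts and at 174 and 144 in the villi, a ratio of -1.69 and -0.27. In brush border-led barcodes it was -1.70 and -0.80, the only member of the list lower in both there. *Cyp2c55* had -1.33 and 0.08. The list median was 0.03 in the crypts and 0.76 in the villi, or 0.02 and 0.39 in brush border-led barcodes.

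Of the remaining genes among the 12 highest, *G0s2*, an inhibitor of the lipase that opens lipid droplets (chr1:193272161-193273217), was at 1.91 CPM in LFD sham and 14.9 in HFD sham crypts, and at 3.74 and 15.4 in the villi. Its ratios were 2.97 and 2.04. In stem and cycling-led barcodes of the crypts, 162 of LFD sham and 153 of HFD sham, its ratio was -0.89, which rests on few UMIs. *1700016C15Rik*, whose function is not known, was at 12.2 and 48.7 CPM and at 2.54 and 24.9. *Paqr7* had 1.71 and 1.47 and *2200002J24Rik* 1.81 and 1.58. *Hnf4aos*, which is antisense to *Hnf4a*, had 1.42 and 2.06, whereas *Hnf4a*, a regulator of enterocyte genes, had -0.08 and -0.15. The counting is not stated to use strand, so reads of the antisense pair cannot be assigned with certainty.

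Genes of fat uptake and chylomicron assembly differed between all barcodes and those led by brush border markers. In the villus-labelled libraries 17 of 22 members were higher in HFD sham (background 7.34%), with a median of 0.65, but in brush border-led barcodes of the same libraries 4 were higher (background 4.67%) and the median was 0.19. In the crypts 3 were higher (background 4.25%) and the median was 0.17. The brush border marker level was itself higher in the HFD sham villi, by 0.58 on the log2 scale. The 2 members higher in both preparations (background 1.97%) kept that direction in brush border-led barcodes. *Fabp2*, the intestinal fatty acid binding protein, was at 20646 and 29732 CPM in the crypts and 7864 and 16915 in the villi, and had 0.51 and 0.63 within brush border-led barcodes. *Apoc2*, the cofactor of lipoprotein lipase, was at 1243 and 2382 CPM and at 363 and 1025, with 0.93 and 1.03 there. *Npc1l1*, the cholesterol importer, lay on the other side at -0.60 and -0.13, or -0.63 and -0.64 in brush border-led barcodes.

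Peptidases and amino acid transporters followed the same pattern, although *Anpep*, *Mep1a* and *Mep1b* of this list are also brush border markers. None of 20 members lay beyond 0.5 in the crypts (background 4.25% higher and 8.25% lower), whereas 17 were higher in the HFD sham villi (background 7.34%), and 4 in brush border-led barcodes of the villi (background 4.67%). Those 4 were *Mme* and *Ace*, which trim peptides at the brush border, and the transporters *Slc6a20a* and *Slc7a7*. Their ratios there lay between 0.61 and 0.75. The median in the villi was 0.62 over all barcodes and 0.19 in brush border-led ones.

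Genes of sugar digestion and transport lay mostly below 0 in the crypts, and in both preparations within brush border-led barcodes. In the crypts 7 of 13 were lower (background 8.25%), with a median of -0.54. In the villi the median was 0.18 over all barcodes but -0.36 in brush border-led ones, where 5 members were lower in both preparations (background 2.93%). *Mgam*, a brush border disaccharidase that splits starch products, was at 4859 CPM in LFD sham and 2392 in HFD sham crypts and at 2278 and 1709.6 in the villi, and its ratios in brush border-led barcodes were -1.05 and -0.91. *Slc5a1*, the sodium-coupled glucose importer, had -0.94 and -0.91 there, *Slc2a2*, the basolateral glucose exporter, -1.12 and -1.07, and sucrase-isomaltase (*Sis*) -0.81 and -0.61. *Tkfc*, which phosphorylates products of fructose breakdown, was the fifth at -0.56 and -0.55. *Treh* and *Slc5a4b* were exceptions. Trehalase (*Treh*) was at 141 and 191 CPM in the crypts and 40.1 and 102 in the villi, and *Slc5a4b* was at 0.29 and 1.03 in brush border-led barcodes. Of glycolysis and gluconeogenesis, *Fbp1*, which makes fructose 6-phosphate in gluconeogenesis, had -1.14 and -0.54 over all barcodes, while the list median was -0.06 in the crypts and 0.34 in the villi. In brush border-led barcodes that median was -0.04 and 0.04.

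Most genes of cholesterol synthesis lay below 0. Of 24 members 19 lay below 0 in both preparations, against 4547 of 11830 measured genes, and 6 were lower in both (background 3.96%), with a median of -0.22 in the crypts and -0.44 in the villi. In brush border-led barcodes the median was -0.18 and -0.58, with 4 of 23 lower in both (background 2.93%). There 13 were lower in the villi, against 575 of 10003 measured genes. In stem and cycling-led barcodes the median was -0.53 and -0.35, with 7 of 23 lower in both (background 0.969%). *Sqle*, the epoxidase that commits squalene to sterols, was at 9.81 and 5.13 CPM in the crypts and 27.5 and 13.2 in the villi, ratios of -0.93 (-1.17 to -0.70) and -1.07 (-1.19 to -0.94). The demethylases *Cyp51* and *Msmo1* had -0.60 and -0.94 and -0.84 and -0.55.

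Fatty acid synthesis and oxidation gave a few members in each direction. The synthesis list had a median of -0.14 in the crypts and -0.32 in the villi, with 7 of 13 members below 0 in both (4547 of 11830 over all measured genes), and of 0.02 and 0.13 in brush border-led barcodes. *Me1*, the malic enzyme that supplies NADPH, was at 13.6 CPM in LFD sham and 42.5 in HFD sham crypts and at 32.9 and 54.5 in the villi. The elongase *Elovl5* had -0.46 and -1.15. *Angptl4*, an inhibitor of lipoprotein lipase induced by fatty acids through PPAR receptors, was lower in both, at 39.7 and 16.8 CPM in the crypts and 26.9 and 15.0 in the villi. *Cpt1a*, which admits fatty acids to mitochondria, was at -0.06 and -0.13, and the lipid droplet coat gene *Plin2* at 0.42 and 0.67. The oxidation list had a median of 0.13 and 0.19.

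Vitamin A genes lay on both sides. *Bco1*, the oxygenase that cleaves beta-carotene to retinal (chr8:117095854-117133720), was at 71.0 CPM in LFD sham and 19.5 in HFD sham crypts, and at 39.7 and 6.48 in the villi. Its ratios were -1.86 (-1.98 to -1.75) and -2.61 (-2.77 to -2.46), and -1.89 and -3.13 in brush border-led barcodes. With at most 10% mitochondrial UMIs the villus ratio of *Bco1* was -1.38. *Rbp2*, which binds retinol inside the enterocyte, was at 6079.7 and 9876 CPM in the crypts and 2722 and 7448 in the villi, ratios of 0.70 and 1.45. The retinol dehydrogenase *Rdh7* had 0.50 and 1.35. *Isx*, the repressor of *Bco1*, was at -0.10 and 0.01. The calcium-binding *S100g*, a target of vitamin D, was at 4.29 and 14.0 CPM and at 7.79 and 12.8. Of 9 bile acid and sterol transport genes and 6 iron genes none was beyond 0.5 in both (background 1.97% higher and 3.96% lower). The bile acid list had a median of -0.08 in the crypts and 0.42 in the villi, and -0.10 and -0.03 in brush border-led barcodes, and the iron list 0.15 and 0.37.

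Nuclear genes of oxidative phosphorylation lay mostly a little above 0. Of 64 members 62 lay above 0 in both preparations, against 2938 of 11830 measured genes, with a median of 0.19 in the crypts and 0.23 in the villi, and 0.18 and 0.12 in brush border-led barcodes. *Cox7a1* alone of the 64 lay beyond 0.5 in both (background 1.97%), at 0.53 and 1.02. The median of all measured genes was -0.02 and -0.10. The 13 mitochondrially encoded genes did not share it. Their median was -0.17 in the crypts and 0.14 in the villi, -0.17 and -0.05 in brush border-led barcodes, and 0.03 in the crypts with at most 10% mitochondrial UMIs, a limit that acts on these genes directly. Subtracting the stated free RNA moved it to -1.32 and -0.46. The values here are over all passing barcodes, most of them brush border-led. The study names further genes as lowered by the high-fat diet in its stem or Paneth clusters. Of these, *mt-Co1* had -0.51 and -0.04, *Gapdh* -0.02 and 0.33, *Ldha* 0.22 and 0.35, *Cox7a2* 0.19 and 0.37, *Gpx4* 0.20 and 0.71 and *Prap1* 0.20 and 0.60. In brush border-led barcodes *Gapdh* was at -0.04 and 0.04 and *Prap1* at 0.18 and 0.19. In stem and cycling-led barcodes *mt-Co1* was at -0.30 and 0.06, *Gapdh* at -0.10 and -0.09 and *Cox7a2* at 0.08 and 0.21. Values of *Gpx4* and *Prap1*, which the study places more in stem than in Paneth cells, are not given here for that class.

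Stress and clock genes gave single members in place of whole lists. *Hsph1*, a heat shock protein that recharges Hsp70 chaperones, was at 35.7 CPM in LFD sham and 13.6 in HFD sham crypts and at 124 and 32.9 in the villi, ratios of -1.39 (-1.53 to -1.25) and -1.91 (-1.98 to -1.84). The inducible Hsp70 genes *Hspa1a* and *Hspa1b*, near-identical copies, had -1.07 and -0.23 and -1.37 and -0.50. *Atf3*, an immediate early factor, was higher in both at 0.56 and 0.72. Of the unfolded protein response, *Creld2* had -0.68 and -0.62, and the chaperones *Hspa5* and *Hsp90b1* -0.33 and -0.30 and -0.29 and -0.31. Among clock genes *Npas2* was lower in both, at -0.62 and -0.67, and *Nfil3* higher, at 0.87 and 0.58, although in the villi *Nfil3* was at -0.13 with at most 10% mitochondrial UMIs. The output gene *Dbp* was at 0.00 in the crypts and 1.11 in the villi. Nuclear and rRNA-overlapping transcripts, which stay in the nucleus or overlap ribosomal RNA, had medians of -0.31 and -0.29, with *Malat1* at -0.31 and -0.12. In brush border-led barcodes the medians of that list were -0.26 and -0.70.

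**Figure D5:**
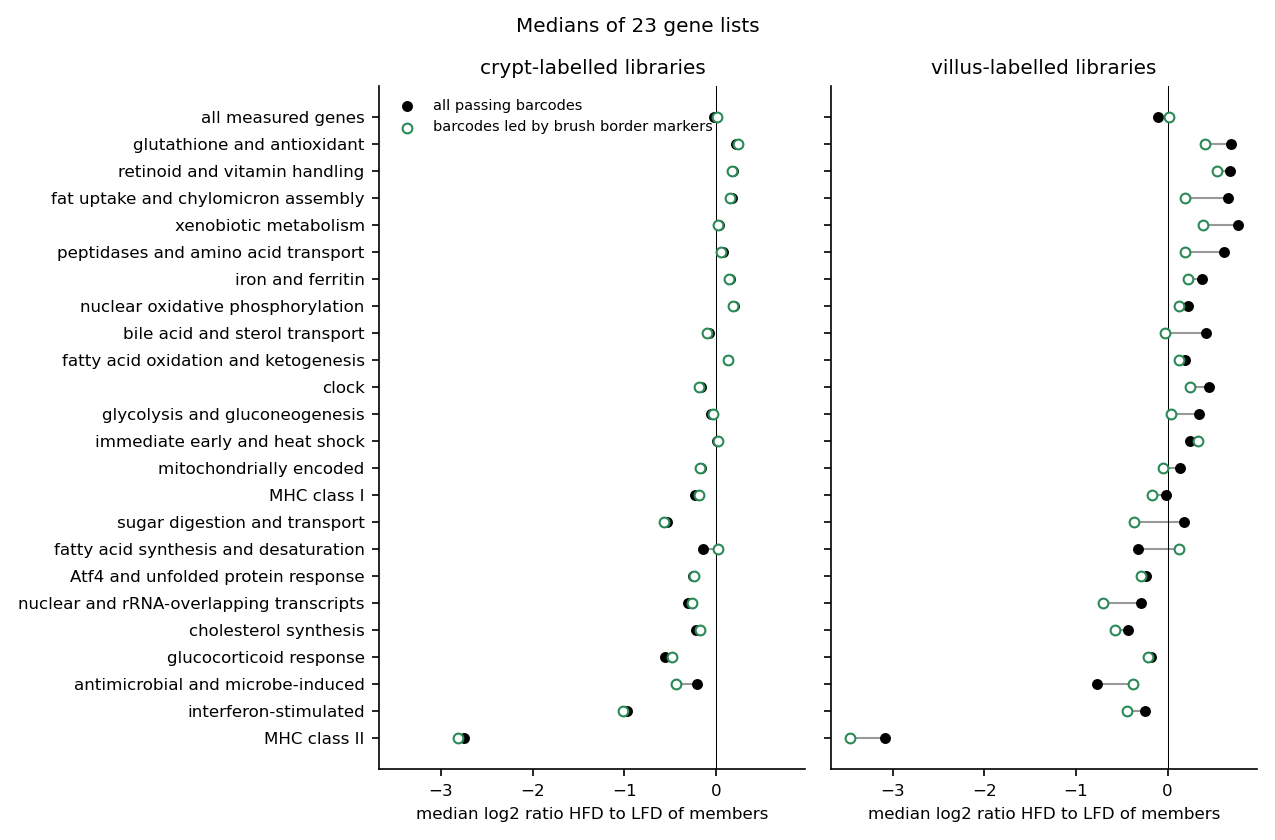
Median log2 ratio of HFD sham to LFD sham of the measured members of 23 gene lists and of all measured genes, in the crypt-labelled (left) and villus-labelled (right) libraries, for all passing barcodes (filled) and brush border-led barcodes (open). MHC class II stands apart at -2.75 and -3.08, and the fat uptake and peptidase lists move from 0.65 and 0.62 to 0.19 and 0.19 in the villus-labelled libraries when only brush border-led barcodes are summed.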

How the data were processed

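Libraries were made with 10x Genomics 3′ v3.1 chemistry. Per the labels and the study's methods, Cell Ranger 6.0.0 with the mm10 genome turned the reads into whole-number UMI counts, which the authors deposited as gene-by-barcode matrices. Whether counting used strand or introns is not given in the sources used here. Barcodes with at least 750 genes and at most 20% mitochondrial UMIs were kept, counts were summed per library and scaled to CPM, and the log2 ratio of HFD sham to LFD sham was taken within each preparation. Sums below 3 UMIs were set to 3. Exact 95% intervals treat the sums as Poisson counts. Doublets were left in, and their removal was tried as an alternative. Genes were located with GENCODE vM21. Named genes were the 12 highest and 12 lowest in both preparations (mean of at least 200 UMIs, no barcode above 10%), the 4 most opposite, up to 4 members with the largest difference and the 2 most abundant of each of 23 lists, and 7 genes the study names; other members named were chosen after their values were seen. Some members are not reported here. The members, gene lists and 12 marker lists were chosen with earlier results of these data known. Scripts ran in Python 3.11.15 with numpy 2.4.6, scipy 1.17.1 and pandas 2.3.3, and were tested on simulated data. Alternatives changed the scaling, barcode limits, doublets, free RNA, class of barcode, depth, size of difference and minimum count.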

Additional observations from a re-analysis of the deposited data

Results flagged for a closer look

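Among genes that averaged 200 UMIs or more, 4 differed most in opposite directions in the 2 preparations. None of these differences between preparations was tested. The villus-labelled minus the crypt-labelled log2 ratio was 9.29 for *Sst*, 4.48 for *Pyy*, -10.4 for *Ighm* and -7.93 for *Cd52*. *Sst*, the somatostatin gene of D cells, was at 109 CPM in LFD sham and 9.05 in HFD sham crypts, and at 0.78 and 40.5 in the villi. *Pyy*, the peptide YY gene of L cells, was at 28.2 and 3.15 CPM and at 10.1 and 25.1. A single barcode held 84.6% of the UMIs of *Sst* and 62.3% of those of *Pyy* in 1 library. *Ighm*, the heavy chain of IgM, was at 0.75 and 1.78 CPM in the crypts and at 29.6 and 0 in the villi, where its value is a bound set by 3 UMIs, and *Cd52*, a surface glycoprotein of lymphocytes, was at 5.53 and 12.2 CPM and at 30.4 and 0.27. A single barcode held 73.1% of the UMIs of *Ighm* and 37.4% of those of *Cd52* in 1 library. B and plasma cell markers summed to 56.7 CPM in LFD sham and 10.8 in HFD sham villi, of which *Jchain* gave 9.01 and 9.62. T cell markers summed to 1438 and 9.98 CPM there.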

How the results depend on the processing

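No paired analysis was possible because the labels carry no replicate numbers and each diet and preparation has 1 library. The counts of genes beyond 0.5 that moved by over 1.5 times from 503 higher and 976 lower in the crypts, 868 and 2221 in the villi, and 233 and 469 in both, were the following. The number of measured genes differed too, from 3238 in droplets under 100 UMIs to 14299 with a mean of 10 UMIs. What moved each count was not tested. At 10% mitochondrial UMIs 379 genes were higher in both. All called barcodes gave 548 higher in the villi. Subtracting free RNA at the stated fractions gave 1328 higher in the crypts and 379 higher in both, with the crypt median of all genes at 0.15. Brush border-led barcodes gave 649 lower in the crypts, 467 higher and 575 lower in the villi and 293 lower in both. Stem and cycling-led barcodes gave 610 lower in the crypts, 183 higher and 216 lower in the villi, and 91 higher and 89 lower in both. Thinning to 1500 UMIs gave 561 lower in the crypts, 1369 in the villi, and 152 higher and 234 lower in both. A size of 1 gave 93 and 244 in the crypts, 184 and 803 in the villi and 51 and 78 in both. A mean of 200 UMIs gave 318 higher and 466 lower in the crypts, 1226 lower in the villi and 196 lower in both, and a mean of 10 UMIs gave 984 higher and 1793 lower in the crypts, 3344 lower in the villi and 870 lower in both. Droplets under 100 UMIs, an alternative added after seeing the data, gave 122 and 485 in the crypts, 158 and 473 in the villi and 47 and 161 in both. Of the 3238 genes measured in droplets, 1.45% were higher and 4.97% lower in both, against 1.97% and 3.96% of 11830 genes in passing barcodes.

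Of 46 list medians 25 had the other sign under at least 1 of 15 alternatives, such as sugar in the villi (0.18, and -0.36 in brush border-led barcodes), clock in the villi (0.45, and -0.17 in droplets) and iron in the crypts (0.15, lowest -0.22); those of MHC class II, interferon, glutathione, cholesterol and oxidative phosphorylation kept theirs in both preparations. Named values beyond 0.5 changed sign in the following cases, and the cause was not tested. At 10% mitochondrial UMIs *Nfil3* was -0.13 in the villi. In brush border-led barcodes *Pyy* was 0.31, *Fads1* 0.12, *Hk2* 0.10 and *Psat1* 1.24 in the crypts, and *Hk2* 0.032 in the villi. In stem and cycling-led barcodes *G0s2* was -0.89, *Gbp7* 1.75 and *Slc39a14* 0.16 in the crypts, and *Fabp1* -0.066, *Lyz1* 0.18, *Fabp6* -0.43, *Slc10a2* -0.35 and *Atf3* -0.058 in the villi. The crypt values of *G0s2* and *Gbp7* there, and of *Fads1* in brush border-led barcodes, rest on few UMIs. Thinned, *Hk2* was 0.13 in the crypts, and *Hk2* 0.063, *Lyz1* 0.32, *Nfil3* -0.21, *Dusp1* -0.17 and the antimicrobial list median 0.083 in the villi. In droplets *Cd52* was -0.46 and *Elovl6* -0.20 in the crypts, and *H2-Q10* 0.35, *Xaf1* 0.35 and *Npas2* 0.26 in the villi. Over all alternatives *H2-Aa* ranged from -3.45 to -2.44 in the crypts and from -4.41 to -3.33 in the villi, *Fkbp5* from -4.88 to -1.29 and from -3.16 to -1.64, *Reg3g* from -1.83 to -1.07 and from -2.33 to -1.14, and *Akr1c19* from 1.60 to 2.29 and from 1.79 to 2.73. Depth limits the HFD sham values of genes such as *Ubd*, which rested on few UMIs.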

Other observations

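Families and genes in this section were picked after their values were seen, and the values are given without a test. In brush border-led barcodes 78 of 80 genes for cytosolic ribosomal proteins lay above 0 in both preparations, against 3826 of 10003 measured genes there, with median log2 ratios of HFD sham to LFD sham of 0.43 in the crypts and 0.12 in the villi. Over all barcodes the medians were 0.29 and -0.21, and in stem and cycling-led barcodes -0.07 and -0.05. Mitochondrial ribosomal protein genes had 64 of 78 above 0 in both in brush border-led barcodes, against the same 3826 of 10003, with medians of 0.26 and 0.10. Over all barcodes 28 of 78 were above 0 in both, against 2938 of 11830 measured genes, with medians of 0.22 and -0.07. In stem and cycling-led barcodes 35 of 78 were, against 2752 of 9186, with medians of 0.03 and 0.05. Histone genes, which dividing cells transcribe, had medians of -0.15 and -1.21 over all barcodes and of -0.43 and -0.57 within stem and cycling-led barcodes, where 38 of 47 lay below 0 in both, against 2898 of 9186 measured genes there.

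Several other genes lay on the higher side. *Egln3*, a prolyl hydroxylase that marks HIF for destruction, had 1.24 in the crypts and 1.99 in the villi, and *Ankrd37* had 1.28 and 2.12, or 1.27 and 2.13 in brush border-led barcodes. *Tm4sf4*, a surface tetraspanin-like protein, had 2.28 and 1.02 over all barcodes and 3.07 and 2.88 in brush border-led ones. The secreted signal *Wnt4* had 65 and 105 UMIs in LFD and HFD sham crypts and 74 and 181 in the villi. Further interferon-inducible genes lay on the lower side, *Irgm2* at -2.50 and -1.48, *Oas3* at -1.49 and -1.01 and *Ddx60* at -1.90 and -0.85. The complement gene *C4b* was at -2.18 and -1.02, and 1 barcode held 12.9% of its UMIs in 1 library.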
